A study of Rattus norvegicus with 6 samples.

Results

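The genes described here are 10 keratins of epithelial cells, measured in the metrial gland of pregnant rats. They were taken as every probe set for which the platform annotation names only Krt5, Krt7, Krt8, Krt10, Krt14, Krt15, Krt17, Krt18, Krt19 or Krt23. Each gene had 1 such probe set, so the 10 genes stand on 10 of the 31042 probe sets of the array, which name 14217 genes. Another 2 probe sets name a keratin together with a further gene and were left out. The tissue came from 3 samples in hypoxia, whose dams breathed 10.5% oxygen between gestation days 6.5 and 13.5, and from 3 ambient samples, whose dams breathed 21% oxygen, with no genotype or other agent given for either group. The labels give no strain and do not say whether a sample is 1 animal or a pool, so a p-value here reflects only how these 6 samples scatter, part of which may be technical. The tissue label was checked loosely with marker lists. All 10 uterine natural killer genes, all 8 smooth muscle genes and all 8 decidual genes passed the filter on low values. So did all 7 endothelial genes on the array. The filter kept 18625 of the 31042 probe sets, so passing it does not single out this tissue. The metrial gland lies in the uterine wall behind the placenta and holds decidual stroma, natural killer cells, vessels, muscle and, at this stage, trophoblast that enters from the placenta.

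Keratins are the intermediate filament proteins of epithelial cells. A filament is built from pairs of an acidic type I keratin (Krt10, Krt14, Krt15, Krt17, Krt18, Krt19 and Krt23 here) and a basic type II keratin (Krt5, Krt7 and Krt8). Epithelium of 1 layer, trophoblast included, carries Krt8 and Krt18, often with Krt7 and Krt19, and antibodies to them are a usual stain for trophoblast inside the maternal uterine wall. Stratified epithelium carries Krt5, Krt14 and Krt15 in its basal cells and Krt10 above them. Krt17 is known from skin appendages and injured epidermis. The glands and lining of the uterus, and the mesothelium on its outer face, are also epithelia with simple keratins. The array measures RNA of the whole tissue, in which fewer cells of a type and less RNA per cell cannot be told apart.

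Krt8 and Krt18 encode the pair that forms the basic simple filament. They are neighbours on rat chromosome 7 in the RefSeq annotation, and Krt18 lies there at the edge of the type II cluster, while the other 6 type I genes lie on chromosome 10. The RefSeq tables held promoter sequences for 5 of the 10 genes, namely Krt5, Krt8, Krt10, Krt18 and Krt23. Those of Krt8 and Krt18 are shown because the values of these 2 genes differ between the groups in the same direction. Each runs 5′ to 3′ over 250 bases before and 50 bases after the annotated start in assembly GRCr8, at chr7:135010290-135010589 on the minus strand for Krt8 and at chr7:135035918-135036217 on the plus strand for Krt18. Capitals mark matches to the motifs named after them.
Krt8: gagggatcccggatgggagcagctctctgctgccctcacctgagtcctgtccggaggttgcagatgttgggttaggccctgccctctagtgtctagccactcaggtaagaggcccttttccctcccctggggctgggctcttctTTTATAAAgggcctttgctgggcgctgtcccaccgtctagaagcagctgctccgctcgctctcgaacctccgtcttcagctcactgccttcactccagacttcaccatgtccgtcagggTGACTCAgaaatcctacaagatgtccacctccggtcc
Krt18: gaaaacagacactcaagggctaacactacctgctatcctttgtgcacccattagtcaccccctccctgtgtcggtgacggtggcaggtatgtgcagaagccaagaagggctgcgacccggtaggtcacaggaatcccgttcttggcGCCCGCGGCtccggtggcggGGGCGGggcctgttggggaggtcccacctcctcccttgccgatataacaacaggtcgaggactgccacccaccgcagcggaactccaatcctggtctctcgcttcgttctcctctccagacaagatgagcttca

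Both strands were searched for ACGTG or its variant GCGTG, which are cores bound by hypoxia-inducible factors. The AP-1 motif was spelled TGANTCA, the AP-2 motif GCCNNNGGC, the GC box GGGCGG and the TATA box TATAAA. In Krt8 the capitals mark a TATA match beginning at -104 from the start, which overlaps one on the other strand beginning at -106, and an AP-1 match beginning at 14 after the start. The annotated start of Krt8 falls on an ATG, so the letters after it, the AP-1 match included, read as coding sequence, and the positions before it count from that ATG. In Krt18 they mark an AP-2 match beginning at -104 and a GC box beginning at -84. Neither window held ACGTG or GCGTG. Over 33469 promoter windows of the same length, the shares with a match were 19.3% for ACGTG, 29.7% for GCGTG, 7.33% for the AP-1 letters, 15.1% for AP-2, 33.1% for the GC box and 14.2% for TATA. Of the other 3 promoters, Krt5 held a GC box, Krt10 held GCGTG and TATA, and Krt23 held GCGTG.

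The simple keratins Krt7 and Krt8 rose in hypoxia, Krt18 had a difference as large as that of Krt8 that did not pass the test, and Krt19 did not share the direction. Of the 10 keratins, 5 (Krt7, Krt8, Krt18, Krt19 and Krt23) passed the filter on low values, which left out probe sets with a mean under 5.74 on the log2 scale. All 5 stood above that value on every array of both groups. Of these 5, 2 rose, 0 fell and 3 did not pass in the limma fit (adjusted p under 0.05). Before adjustment, 4 of the 5 had a limma p under 0.05, with Krt23 the 1 among them that was lower in hypoxia. The share of all tested probe sets with such a p was not counted. Counts of unadjusted p, here and for the lists below, therefore have no background beside them. Over all 18625 probe sets tested, 4.02% rose and 1.97% fell, a split of calls with 67.1% higher that became 55.4% under quantile normalization. In the fit of all 31042 probe sets without the filter, 2 of the 10 keratins rose and 0 fell, against 2.34% and 1.12% of all probe sets. The median difference was 0.87 for the 4 simple keratins and -0.16 for the 6 others, with Krt15 at its measured values, beside -0.02 for all probe sets.

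**Figure D1:**
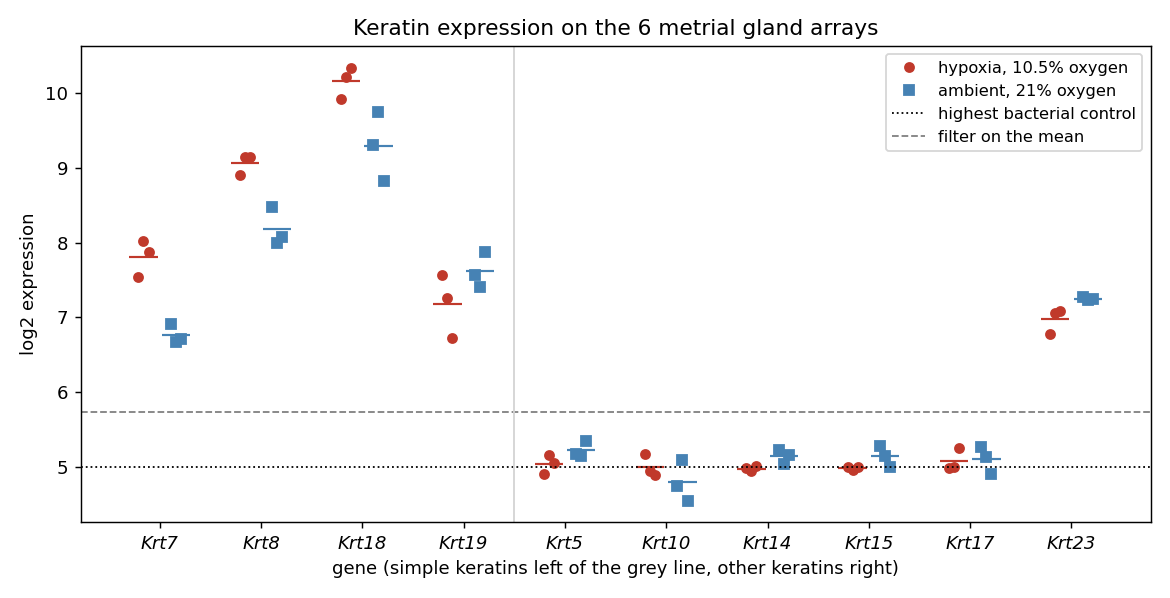
Log2 expression of the 10 keratins, with 1 point per array and the group mean as a bar, hypoxia left of ambient for each gene. The hypoxia points of Krt7, Krt8 and Krt18 lie above all their ambient points, and 5 of the 6 other keratins lie under the dashed filter line at 5.74, near the highest bacterial control at 5.0 (dotted).

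Krt7, a type II keratin of simple epithelium and a usual marker of trophoblast, stood at log2 levels of 7.54, 8.02 and 7.87 on the hypoxia arrays, against 6.91, 6.67 and 6.71 on the ambient arrays. The lowest hypoxia array lay above the highest ambient array, as it did for 15.8% of all tested probe sets. Krt7 averaged 7.81 ± 0.25 in hypoxia and 6.76 ± 0.12 in ambient (SD, n = 3 each), a log2 difference of 1.05 (SE 0.13) or 2.06-fold, with a 95% interval from 1.67-fold to 2.55-fold and a limma adjusted p of 0.00806. The call was kept under each of the 15 alternatives run, with differences from 0.74 to 1.18. Among all probe sets, the difference of Krt7 ranked at the 99.5th percentile.

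Krt8, the type II partner in the basic simple filament, stood at 8.90, 9.14 and 9.15 on the hypoxia arrays, against 8.47, 8.00 and 8.07 on the ambient arrays. Ambient replicate 1 lay closest to the hypoxia arrays and the groups did not overlap. The means were 9.06 ± 0.14 in hypoxia and 8.18 ± 0.25 in ambient, a difference of 0.88 (SE 0.13) or 1.84-fold, with a 95% interval from 1.49-fold to 2.28-fold and a limma adjusted p of 0.0134. The call was lost without ambient replicate 3, where the difference was 0.83 and the adjusted p 0.0592.

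Krt18, the type I partner of Krt8, stood at 9.92, 10.21 and 10.34 on the hypoxia arrays, against 9.31, 9.75 and 8.82 on the ambient arrays. The groups did not overlap, but the ambient arrays spread over more than the hypoxia arrays did. The difference of 0.87 (SE 0.22), or 1.82-fold, with a 95% interval from 1.29-fold to 2.58-fold, did not pass (limma adjusted p = 0.0566). It passed without ambient replicate 2, with a difference of 1.09 and an adjusted p of 0.0394, and was 0.63 without ambient replicate 3. The log2 ratio of Krt8 to Krt18, set to a mean of 0 in ambient, was 0.09, 0.04 and -0.09 on the hypoxia arrays, against 0.27, -0.63 and 0.36 on the ambient arrays. On average the 2 partners differed between the groups by nearly the same amount, and their ratio was less even among the ambient arrays, a spread that was not tested.

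Krt19, the smallest keratin, is a type I keratin of simple and ductal epithelium. It stood at 7.56, 7.26 and 6.73 on the hypoxia arrays, against 7.57, 7.40 and 7.87 on the ambient arrays. Hypoxia replicate 1 lay within the ambient range and hypoxia replicate 3 lay lowest of the 6. The difference was -0.43 (SE 0.21, 95% interval -0.91 to 0.05) and did not pass (limma adjusted p = 0.259). Without hypoxia replicate 3 it was -0.20. The interval holds no rise of the size seen for Krt7 or Krt8. Relative to Krt19, Krt8 changed by 0.77, 1.32 and 1.85 on the hypoxia arrays, against 0.33, 0.03 and -0.37 around a mean of 0 on the ambient arrays, which do not overlap. This ratio was chosen after the values were seen and was not tested.

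**Figure D2:**
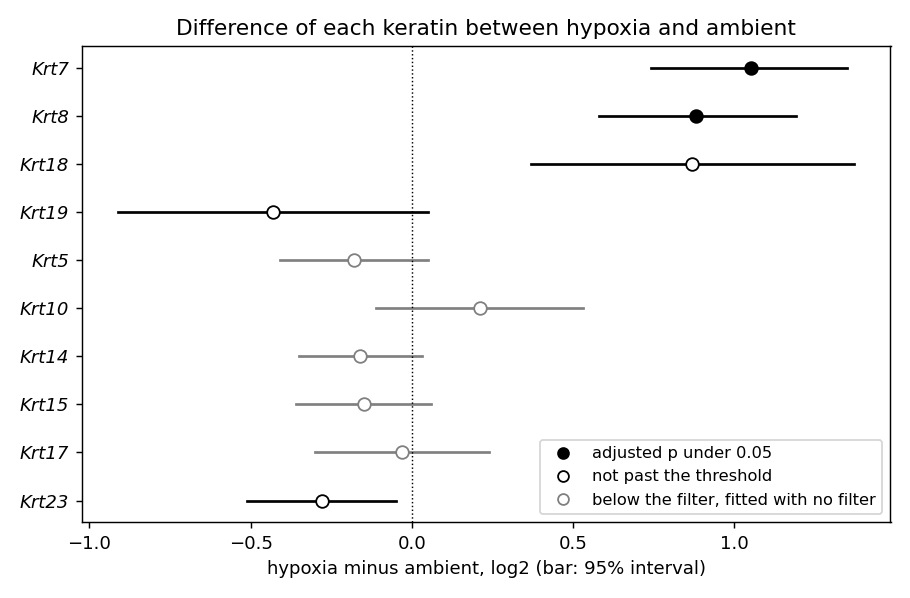
Log2 difference, hypoxia minus ambient, of each keratin with its 95% interval from limma. Filled points mark Krt7 and Krt8, which passed the threshold, and grey points mark the 5 keratins below the filter, whose intervals all hold 0 (Krt15 is drawn at its measured values, although its hypoxia arrays give only a bound).

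Krt23, a type I keratin known from gut epithelium, was the 1 gene of the other set that passed the filter. It stood at 6.78, 7.06 and 7.08 on the hypoxia arrays, against 7.27, 7.23 and 7.25 on the ambient arrays. The ambient arrays lay close together and above every hypoxia array, an order seen for 14.1% of all tested probe sets. The difference of -0.28 (SE 0.10, 95% interval -0.51 to -0.05) did not pass (limma adjusted p = 0.144), and without hypoxia replicate 1 it was -0.18.

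The keratins of stratified epithelium lay near the level of RNA that the tissue cannot contain. As a guide, 27 probe sets for bacterial transcripts had a median per array from 3.65 to 3.73 and a highest value of 5.0. The basal type II keratin Krt5 stood at 4.91, 5.16 and 5.05 in hypoxia, against 5.17, 5.14 and 5.35 in ambient. Its basal partner Krt14 stood at 4.98, 4.94 and 5.01 in hypoxia, against 5.22, 5.04 and 5.16 in ambient. Krt15, a type I keratin of basal cells, stood at 5.0, 4.96 and 5.0 in hypoxia, against 5.28, 5.14 and 5.0 in ambient. For Krt14 and Krt15 every hypoxia array was lower than every ambient array, which held for 13.7% of all probe sets. The nearest arrays of Krt14 were 5.01 and 5.04, and for Krt15 the gap does not show in the rounded values (5.0 and 5.0). At this level such an order carries little weight. Krt15 was above the highest bacterial value on 0 of the 3 hypoxia arrays and has only a bound there, while all 3 of its ambient arrays lay just above.

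Krt10, the suprabasal keratin of cells that leave the basal layer, stood at 5.17, 4.94 and 4.89 in hypoxia, against 4.74, 5.09 and 4.55 in ambient, and was above the highest bacterial value on 1 array of each group. Krt17 stood at 4.98, 5.0 and 5.25 in hypoxia, against 5.27, 5.13 and 4.90 in ambient. Neither separated the groups. In the limma fit without the filter the differences were -0.18 for Krt5, -0.16 for Krt14, -0.03 for Krt17 and 0.21 for Krt10, with adjusted p from 0.329 to 0.928. The widest interval, that of Krt10, reached from -0.11 to 0.53. With signals this close to the controls, these intervals do not show that the transcripts are absent or alike. The difference of Krt17 changed sign under quantile normalization (0.02) and without hypoxia replicate 1 (0.02), hypoxia replicate 2 (0.01) or ambient replicate 1 (0.06).

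The 4 simple keratins were set against the 6 others on each array. The mean of the 4 simple keratins, each centred on its own mean over the 6 arrays, was 0.22, 0.40 and 0.26 in hypoxia, against -0.19, -0.30 and -0.39 in ambient. That of the 6 other keratins was -0.09, -0.05 and -0.01 in hypoxia, against 0.10, 0.07 and -0.02 in ambient. Simple minus other keratins differed by 0.69 between hypoxia and ambient, and the value without any 1 array lay between 0.64 and 0.73. These are descriptions with no test, since the genes were chosen with results of these data known. Krt19 ran against its set in value, as did Krt10, and 5 of the 6 other keratins had signals near the bacterial controls.

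**Figure D3:**
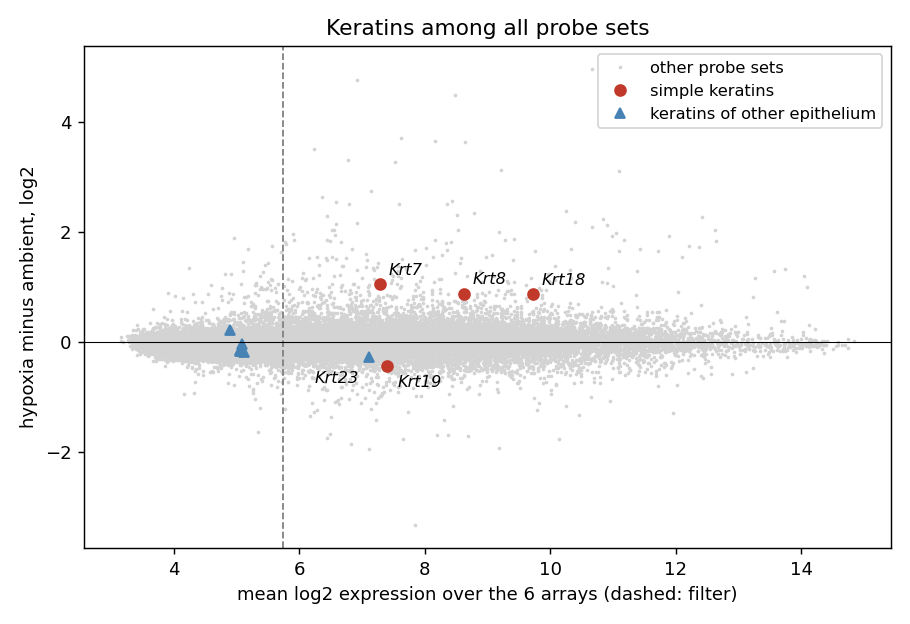
Log2 difference, hypoxia minus ambient, against the mean log2 level of every probe set (grey), with the simple keratins as red circles and the other keratins as blue triangles. Krt7, Krt8 and Krt18 lie in the upper part of the cloud, Krt19 and Krt23 in its lower part, and 5 other keratins left of the dashed filter line at 5.74.

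Genes that anchor keratin filaments changed in both directions. Of 14 desmosome and plakin genes, 12 were measured, and of these 1 rose, 3 fell and 8 did not pass, with a median difference of -0.01. Over all tested probe sets, 4.02% rose and 1.97% fell, with a median difference of 0.00. Dsg2, a desmosomal cadherin of simple epithelium, stood at 5.75, 5.40 and 5.55 in hypoxia, against 6.32, 6.38 and 6.34 in ambient, and fell by 0.78 on the log2 scale (SE 0.11, limma adjusted p = 0.01). Its groups lay well apart, and the call was kept without any 1 array. Its hypoxia mean of 5.57 was under the filter value of 5.74, which Dsg2 passed through its ambient mean of 6.35.

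Ppl, or periplakin, which links keratin to the cell edge, stood at 7.50, 7.08 and 7.07 in hypoxia, against 8.11, 7.79 and 8.13 in ambient. It fell by 0.80 (SE 0.15, limma adjusted p = 0.0245), a call lost without hypoxia replicate 2 (0.0705), ambient replicate 1 (0.0722) or ambient replicate 3 (0.0943). Perp, a desmosomal membrane protein, fell at both of its probe sets, by 0.91 (SE 0.21, limma adjusted p = 0.0455) and by 0.82. At the first, the call was lost without any 1 array but hypoxia replicate 1, with adjusted p from 0.0723 to 0.153, and with no variance trend (0.056) or array weights (0.0629). The 1 rise was that of Dst, or dystonin, whose epithelial form ties keratin to hemidesmosomes and whose other forms are made in muscle and nerve. It rose by 0.29 (SE 0.06, limma adjusted p = 0.041) at its brightest probe set and did not pass at 2 others above the filter (0.39 and 0.38), and the call was lost without any 1 array but hypoxia replicate 3, with adjusted p from 0.0835 to 0.136, and with no variance trend (0.0704). Without any 1 array, 0 to 1 anchor genes rose and 1 to 3 fell. Dsp, which encodes desmoplakin, the main anchor of keratin in the desmosome, differed by -0.07 (limma adjusted p = 0.683) at its brighter probe set and by 0.24 (0.166) at one below the filter. The anchors' summed intensity lay between 5950 and 6690 in hypoxia, against 6110 and 6250 in ambient.

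Intermediate filament genes other than keratins had 0 calls among 7 measured, in the limma fit, and 3 with p under 0.05 before adjustment. The lamin Lmnb1 differed by -0.44 (limma adjusted p = 0.0501) and the lamin Lmna by 0.23 (0.0888). Lmnb1 passed under 8 of 15 alternatives, with adjusted p from 0.0263 to 0.14 over all of them. Without hypoxia replicate 3, 2 genes of this list passed as higher, Lmna among them (0.0313), and Lmnb1 passed as lower. Vimentin (Vim), the filament protein of stroma and endothelium, differed by 0.00 (limma adjusted p = 0.976) with a level near 12.79 on every array. The programme of stratified epithelium, apart from keratins, had 10 of 16 genes on the array, of which 5 were measured, with 0 calls by limma, 0 with p under 0.05 before adjustment and a median difference of -0.08. Sfn, or stratifin, differed by -0.11 and the laminin receptor chain Itga6 by -0.08. Ivl, which encodes involucrin of the cornified envelope, was at or below the highest bacterial value on all 6 arrays.

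Of 22 trophoblast markers on the array, 16 were measured, and of these 10 rose, 0 fell and 6 did not pass, with a median difference of 1.56. The shares over all tested probe sets were 4.02% higher and 1.97% lower. The summed intensity of all 22 lay between 21200 and 30200 in hypoxia, against 4120 and 11100 in ambient, and Elf5, Gcm1, Peg10 and Phlda2 were at or below the highest bacterial value throughout. The count of rises was 4 without hypoxia replicate 1, 5 without hypoxia replicate 3 or ambient replicate 2 and 6 without hypoxia replicate 2. Plac1, a gene named for the placenta, rose by 2.16 (SE 0.27, limma adjusted p = 0.00796), and the imprinted genes Cdkn1c, a cell cycle inhibitor, and Igf2, a growth factor, rose by 1.54 (0.00818) and 1.58 (0.01). Other Igf2 probe sets, all below the filter, differed by -0.01, 0.10 and -0.25 and did not pass in the fit without the filter. Tfap2c, a transcription factor of trophoblast, stood at 7.64, 7.94 and 7.96 in hypoxia, against 6.87, 6.79 and 5.99 in ambient, and rose by 1.30 (SE 0.22, limma adjusted p = 0.0209), a call lost without hypoxia replicate 2 (0.0636). Ambient replicate 3 had the lowest Tfap2c and the lowest Krt18 of the 6 arrays, whereas Krt7 (6.67) and Krt8 (8.00) were lowest in ambient replicate 2. The part of trophoblast content in the keratin differences was not tested.

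Of 18 markers of the uterine lining and glands on the array, 12 were measured, and of these 0 rose, 4 fell and 8 did not pass, with a median difference of -0.53. All 12 were lower in value in hypoxia. Among all tested probe sets, 1.97% fell and 4.02% rose. The summed intensity of all 18 lay between 3590 and 4000 in hypoxia, against 4800 and 6340 in ambient, and Cldn4, Foxa2, Ehf and Cdh16 were at or below the highest bacterial value throughout. The 4 that fell were Epcam, Cdh1, Spint1 and Spint2, which some trophoblast also expresses. Epcam, an adhesion molecule of epithelium, stood at 7.70, 6.26 and 6.34 in hypoxia, against 8.91, 8.10 and 8.59 in ambient, and fell by 1.77 (SE 0.38, limma adjusted p = 0.0381). Cdh1, or E-cadherin, fell by 1.07 (0.049), and the protease inhibitors Spint1 and Spint2 fell by 0.57 (0.0159) and 0.27 (0.0462). Spint1 averaged 5.47 in hypoxia, under the filter value of 5.74, which it passed through its ambient mean of 6.04. Processing choices also ended calls, for Epcam with a robust trend (0.0579) or array weights (0.0613), for Cdh1 with no variance trend (0.0596), a robust trend (0.05) or array weights (0.0785), and for Spint2 with no filter (0.0574) or no variance trend (0.0742). The count of falls was 0 without ambient replicate 2 or ambient replicate 3, 1 without hypoxia replicate 2 or ambient replicate 1 and 2 without hypoxia replicate 3. Hypoxia replicate 1 had the highest Epcam, Cdh1 and Krt19 of its group, but the lowest Krt23 of the 6 arrays (6.78). Whether uterine epithelium bears on the values of Krt19 and Krt23 was not tested.

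**Figure D4:**
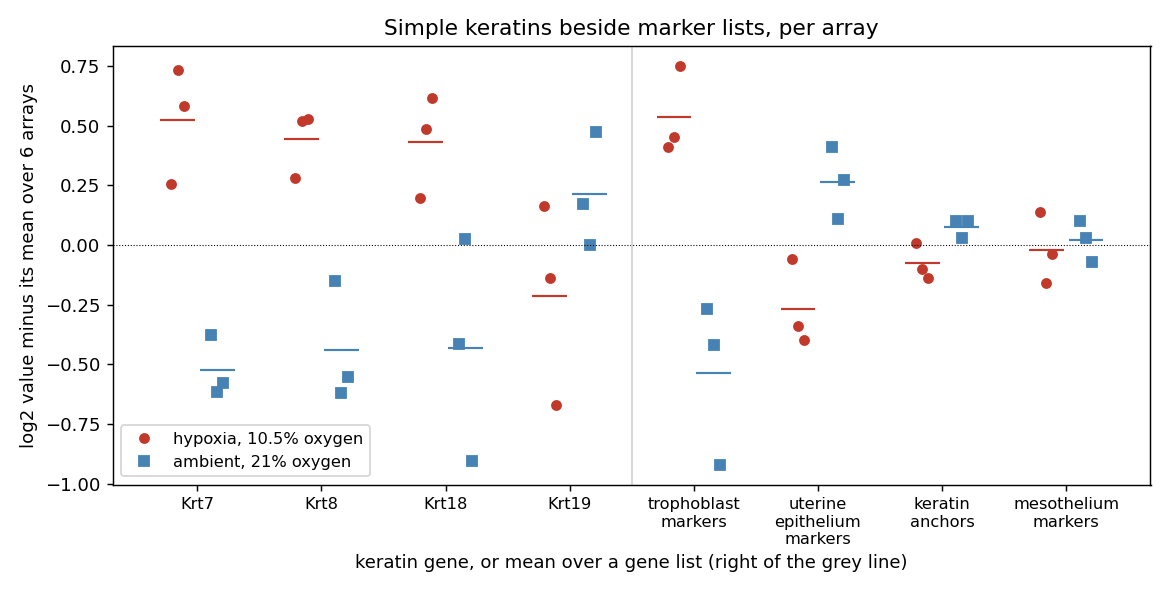
Log2 values centred on their mean over the 6 arrays for the 4 simple keratins and, right of the grey line, for the mean of 4 gene lists, with 1 point per array, the group mean as a bar and hypoxia left of ambient. Krt7, Krt8, Krt18 and the trophoblast markers are higher on all 3 hypoxia arrays, and the uterine epithelium markers are lower on all 3.

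Mesothelial markers, which would report the outer face of the uterus, had 3 of 6 genes measured. Wt1, also a gene of decidual stroma, rose by 0.29 (SE 0.06, limma adjusted p = 0.0346) at 1 probe set, with 0.33 and no call at a second, and its call was lost with no variance trend (0.0608) and without any 1 array (at most 0.117). Msln, or mesothelin, differed by -0.26 (limma adjusted p = 0.0942) and Lrrn4 by -0.23 (0.176). The summed intensity of Wt1, Msln, Lrrn4 and Upk1b lay between 2160 and 2290 in hypoxia, against 1910 and 2050 in ambient. Wt1 was by far the brightest of these, with log2 means of 10.83 in hypoxia and 10.54 in ambient. Msln, the next, had 8.20 and 8.45, so the sum mostly follows Wt1. Among other cell types of the tissue, natural killer markers had 0 rises and 4 falls among 10 measured, smooth muscle 0 calls among 8, 1 of them with p under 0.05 before adjustment in limma, endothelium 4 rises and 0 falls among 7, and decidual stroma 2 rises and 0 falls among 8. The shares of rises and falls over all tested probe sets were 4.02% and 1.97%. The calls in these lists were Cst7, Nkg7, Eomes and Il2rb (lower), Vwf, Tie1, Egfl7 and Tek (higher), and Hand2 and Bmp2 (higher). Eomes fell by 0.39 (limma adjusted p = 0.0156) at 1 probe set and did not pass at another above the filter (-0.26, 0.127). Bmp2 averaged 5.67 in ambient, under the filter value of 5.74, which it passed through its hypoxia mean of 6.58. Igfbp1, another gene of the decidual list, differed by -1.94 and did not pass (limma adjusted p = 0.0525). Of the 8 decidual genes, 6 were higher and 2 lower in value in hypoxia. Without any 1 array, the natural killer falls numbered 1 to 4, the endothelial rises 2 to 3 and the decidual rises 1 to 2. With hypoxia replicate 3 left out, 2 smooth muscle genes passed as higher. Without hypoxia replicate 1, a decidual gene passed as lower. Their part in the keratin differences was not tested.

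The genes whose pattern over the 6 arrays was most like that of the simple keratins were Abcg1, Il11ra1, Arsi, Trim63 and Fat4. Likeness was the Pearson correlation of log2 values with the mean of Krt7, Krt8, Krt18 and Krt19 over 6 arrays, taken among 14372 probe sets that name 1 gene other than a keratin. It lay between 0.995 and 0.998 and rests largely on the distance between the groups, which all 5 genes share. After the group means were taken away it lay between 0.915 and 0.971. That range was also raised by the choice, since the 5 genes were the highest among 14372 probe sets over the same arrays. Since the genes were picked for following a mean that separates the groups, their own group difference was largely fixed by that choice and is given with no test. Abcg1, a cholesterol exporter, differed by 0.59 on the log2 scale. Il11ra1, the receptor chain for interleukin 11, whose loss in mice makes decidualisation fail, differed by 0.78, and Arsi, a sulfatase, by 0.77. Arsi averaged 5.37 in ambient, under the filter value of 5.74, which it passed through its hypoxia mean of 6.14. Trim63, a ubiquitin ligase of muscle, differed by 0.33 and the cadherin Fat4 by 0.31.

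The array medians lay between 6.44 and 6.47, and correlations over the tested probe sets were 0.989 to 0.993 within groups and 0.974 to 0.983 between them. The gap between 3′ and 5′ signals of beta-actin, a sign of RNA integrity, was 0.58, 0.77 and 0.66 on the log2 scale in hypoxia, against 0.53, 0.54 and 0.41 in ambient. Every hypoxia array had the wider gap, with a two-sided exact permutation p of 0.1, below which 3 against 3 arrays cannot go. For GAPDH the gap averaged 0.00 ± 0.05 in hypoxia and -0.03 ± 0.02 in ambient, with an exact permutation p of 0.2. The part of RNA integrity in the keratin differences was not tested.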

How the data were processed

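Per the labels' protocols, Trizol RNA was made into biotin-labelled cRNA for a 1-colour Affymetrix rat array. The deposited values are log2 summaries, 1 per probe set and array, a scale read from the values (2.98 to 14.9). Per the submitters' processing notes, MAS5 and Affymetrix Expression Console were used, but the sources used here do not give their roles, the background correction or the scaling. Of 31099 probe sets, 57 controls were left out, then the dimmest 40% by mean log2 value, which left 18625. Genes were named from the platform annotation, which gave 1 symbol to 20826 probe sets, several to 436 and none to 9780, and checked by gene identifier in RefSeq GRCr8, which held 20758 and changed 0. For genes with several probe sets, the brightest kept one was used.

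Hypoxia minus ambient was tested in R 4.3.3 with limma 3.58.1 (lmFit, eBayes with a mean-variance trend, group as the only term, two-sided), with Benjamini-Hochberg adjustment over all kept probe sets and a threshold of 0.05. Keratins below the filter come from the same fit on all 31042 probe sets. Summed intensity adds 2 to the power of each log2 value. The fit was tested on simulated data with values drawn independently for each probe set, which hold no array effects or correlation between genes. The number of arrays limits the precision. Close keratin paralogs and pseudogenes can share probe sequence, which was not tested. The members and gene lists were chosen with earlier results of these data known. Named genes were all 10 keratins, other keratins past the threshold or the 2 with the smallest p, up to 4 list members past the threshold or the 2 with the smallest p, and the 5 most like the simple keratins. Dsp, Vim, Ivl, Msln, Lrrn4, Igfbp1, Krt4, Krt13 and Krt20 were added after their values were seen. Alternatives were 2 normalizations, 2 filters, an offset of 64, 3 variance models, the replicate block and each array left out.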

Additional observations from a re-analysis of the deposited data

How the results depend on the processing

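Of 15 alternatives, 14 kept a count of keratins higher in hypoxia that was within 1.5 times the 2 reported, with 0 lower under all 15. Without any 1 array the count was 1 to 3. The counts over all probe sets were 749 higher and 367 lower. Without any 1 array they were 223 to 683 higher and 44 to 346 lower, and with no variance trend 241 were lower. Fewer arrays leave fewer degrees of freedom. The difference between simple and other keratins was 0.55 with an offset of 64, which damps low signals by its construction, and 0.64 to 0.73 without any 1 array. Krt17 turned from -0.03 to 0.02 with quantile normalization and ranged from -0.13 to 0.06 without any 1 array. Replicate numbers were not taken to pair the samples, and these values do not settle whether they do. Deviations from the group means of same-numbered arrays correlated at 0.0124, 0.0706 and 0.0705. Hypoxia replicates 2 and 3 correlated best with the ambient array of their own number, and hypoxia replicate 1 with ambient replicate 3. With the replicate block, 797 probe sets were higher and 520 lower, and 3 keratins were higher, since Krt18 then passed (adjusted p = 0.0444). The block also ended the calls of Wt1 (0.0556), Tek (0.0514) and Fat4 (0.0899) and let Lmnb1 (0.0474) and, of the other keratins, Krt12 (0.0474) pass. Krt86 passed with array weights (0.0498). Signals near the bacterial controls limit what can be said of Krt5, Krt10, Krt14, Krt15 and Krt17.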

Other observations

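Apart from the 10 keratins described, 15 keratin genes had 17 probe sets with a single name, of which 7, for 7 genes, passed the filter. By limma 0 of the 7 were called and 1 had an unadjusted p under 0.05, with 5 lower and 2 higher in value in hypoxia. The smallest p was that of Krt86, a type II keratin of hair, at 7.20, 7.24 and 7.36 in hypoxia, against 7.72, 7.60 and 7.49 in ambient, a difference of -0.34 (SE 0.09, limma adjusted p = 0.0703). Krt12, a type I keratin best known from the cornea, stood at 7.38, 6.91 and 7.01 in hypoxia, against 7.11, 5.99 and 6.39 in ambient, a difference of 0.60 (SE 0.26, limma adjusted p = 0.215) with groups that overlapped. Krt4 and Krt13, the pair of lining epithelium such as that of the oesophagus, were at or below the highest bacterial value on all 6 arrays, as was Krt20 of the gut.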
